A study of Mus musculus with 24 samples.

Results

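The genes described here mark bile duct cells or form the simple keratins of liver epithelium: Krt7, Krt19, Epcam, Cd24a, Sox9, Bicc1, Krt8, Krt18, Elf3 and Spp1. These 10 symbols were chosen by name, with earlier results of these data known. For each the probe set with the highest mean over all 24 arrays was taken. A probe set carried the symbol alone for 9 of the 10, of 18820 symbols in all, and Spp1, which encodes the secreted protein osteopontin, was not analysed here. Bicc1 had a second probe set, which lay at a mean log2 intensity of 3.15 with an SD of 0.16 over the 24 arrays and is not used below.

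RNA from whole liver of male mice on a C57/BL6 background was hybridised to 24 arrays, 3 for each of 8 groups. JNK1-/- livers lack the stress kinase JNK1 (gene symbol Mapk8) in every cell type, and these mice came from a different source than the other lines. JNK1Δhepa livers carry floxed Jnk1 alleles and the recombinase Cre, made from the promoter of albumin, which becomes active after birth in hepatocytes, so that other liver cells keep the gene. Control livers carry the floxed alleles without deletion (JNK1f/f). All 3 genotypes were studied after ligation of the common bile duct (BDL), at 48 h in mice labelled as 8 weeks old and at 28 d in mice labelled as 12 weeks old. Sham surgery, in which the abdomen was opened and closed, was available at both times for the control genotype only. The labels identify animals by a replicate number alone, so p-values measure the spread between these samples.

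Cholangiocytes, the cells that line the bile ducts, express keratins 7 and 19 and the adhesion molecule EpCAM, whereas adult mouse hepatocytes contain keratins 8 and 18 and no other keratin pair. When the common bile duct is blocked, pressure and retained bile acids are followed by the growth of small ducts along the portal tracts, which is called the ductular reaction. Hepatocytes near the portal tracts can also begin to express duct genes such as Sox9 in this setting. Keratins 8 and 18 pair with each other to form the filament network of hepatocytes and are also present in duct cells.

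Promoter windows were read for the members whose transcripts stood in a RefSeq table on GRCm38.p6, which held 5 of the 9 measured genes (Krt7, Krt8, Krt18, Epcam and Elf3). Each window runs from 250 bases before to 50 bases after the annotated start and is written 5′ to 3′ in the direction of the gene. Those of Krt8 (chr15:102004293-102004592, minus strand) and Krt18 (chr15:102027966-102028265, plus strand) are shown because the levels of this keratin pair moved together, and that of Elf3 (chr1:135258423-135258722, minus strand) because its change at 48 h was the largest among the members. Capitals mark TATAA, read on both strands, in Krt8 and Krt18, and GGAATG, a motif of TEAD factors, in Elf3.
Krt8: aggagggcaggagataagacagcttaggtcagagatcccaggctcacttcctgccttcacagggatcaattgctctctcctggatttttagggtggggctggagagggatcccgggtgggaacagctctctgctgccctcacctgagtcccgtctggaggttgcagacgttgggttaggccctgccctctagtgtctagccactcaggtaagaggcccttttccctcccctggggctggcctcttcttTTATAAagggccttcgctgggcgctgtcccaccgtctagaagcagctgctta
Krt18: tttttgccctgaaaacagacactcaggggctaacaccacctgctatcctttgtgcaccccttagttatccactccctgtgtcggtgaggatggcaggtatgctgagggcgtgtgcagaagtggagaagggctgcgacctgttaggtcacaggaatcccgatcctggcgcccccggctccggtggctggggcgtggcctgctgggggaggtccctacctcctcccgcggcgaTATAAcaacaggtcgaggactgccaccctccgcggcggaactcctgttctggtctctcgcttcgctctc
Elf3: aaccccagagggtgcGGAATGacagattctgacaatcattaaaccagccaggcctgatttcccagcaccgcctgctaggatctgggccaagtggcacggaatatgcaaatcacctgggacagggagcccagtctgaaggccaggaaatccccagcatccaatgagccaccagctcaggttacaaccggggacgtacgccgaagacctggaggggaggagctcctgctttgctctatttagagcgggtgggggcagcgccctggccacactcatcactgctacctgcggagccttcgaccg

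The AP-1 motif TGANTCA, to which dimers of Jun and Fos proteins bind, was found on neither strand of the 5 windows, and 7.81% of 32851 RefSeq windows of this length held it. GGAATG lay 235 to 230 bases before the start of Elf3 and in no other of the 5, against 14.7% of all windows. TATAA, a motif chosen after the windows had been read, stood 19 to 15 bases before the start of Krt18 and across the annotated start of Krt8, where its reverse complement overlaps it, and 24.9% of all windows held it. The annotated starts of Krt8 and Krt18 lie 23874 bases apart on chromosome 15, on opposite strands.

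Values below are log2 intensities, and those of a group are given in the order of replicates 1, 2 and 3. The targeted gene was examined first. Mapk8 read 5.18 to 6.17 on the 6 JNK1-/- arrays, 6.76 to 7.67 on the 6 JNK1Δhepa arrays and 7.37 to 7.67 on 9 of the 12 control arrays. The remaining 3, labelled control sham 48 h, read 6.67 to 6.93 and lay below every other control array. By limma Mapk8 was lower in JNK1-/- than in control ligated livers by a log2 difference of -1.58 at 48 h (adjusted p = 0.00057) and -1.87 at 28 d (adjusted p = 0.000102), whereas the JNK1Δhepa differences of -0.66 and -0.33 did not pass. Where the probes lie relative to the deleted part is not known here. The array labelled JNK1Δhepa 28 d replicate 1, at 7.67, lay at the control level. The 17 measured hepatocyte markers averaged between 12.12 and 12.55 on every array, so the labelled tissue carries its defining genes. Of the 9 members, 8 were highest within their group on control BDL 28 d replicate 3, whose mean over the members was 9.67, against 7.58 and 8.14 on replicates 1 and 2. On that array the mean of 25 other bile duct markers was 7.51 (5.95 and 6.07 on the other two), that of 18 stellate cell and myofibroblast markers 8.40 (6.53 and 6.97) and that of 10 mesothelial markers 7.05 (6.28 and 5.33). Members also lay high on control sham 28 d replicate 3 (highest in 7 of 9) and JNK1-/- BDL 28 d replicate 3 (8 of 9), and low on JNK1-/- BDL 48 h replicate 1 (lowest in 7 of 9). For many results that depend on these arrays, but not for all, values without them are also given.

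**Figure D1:**
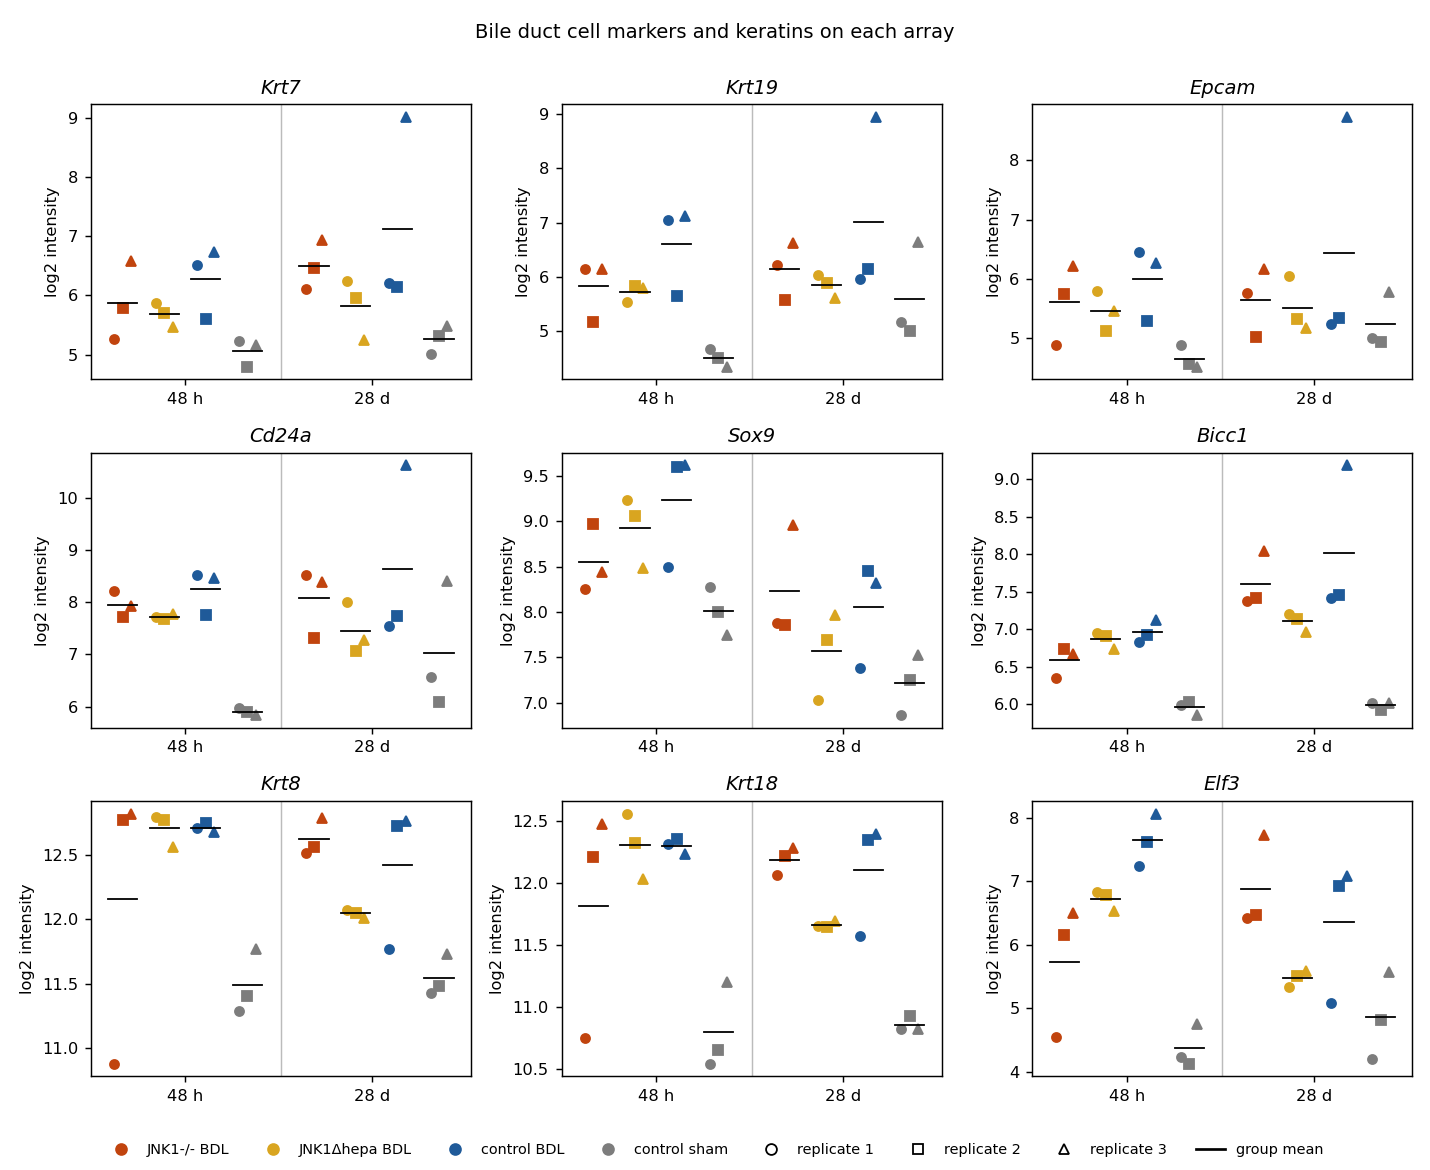
Log2 intensity (vertical axes, a scale per gene) of the 9 measured members on each of 24 arrays, by time after surgery, for JNK1-/- BDL, JNK1Δhepa BDL, control BDL and control sham livers. Points are arrays, their shapes are replicate numbers and bars are group means. The triangle of control BDL at 28 d stands far above the other arrays of its group in Krt7, Krt19, Epcam, Cd24a and Bicc1.

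The response of control liver to a blocked bile duct was measured first after 48 h. All 9 members had a higher mean after ligation than on the arrays labelled control sham 48 h, and 7 of the 9 passed limma's test at an adjusted p under 0.05 (Krt19, Krt8, Krt18, Sox9, Cd24a, Elf3 and Bicc1). Across all genes 5.61% were called higher in this comparison. The median log2 difference of the members was 1.35, against -0.03 for all genes. In RNA from whole liver, more duct cells and more RNA per cell cannot be told apart.

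Among the duct surface and filament genes, Krt19, the keratin most restricted to bile ducts in mouse liver, read 7.05, 5.64 and 7.12 in control livers ligated for 48 h, against 4.67, 4.49 and 4.34 on the arrays labelled control sham 48 h. Ligated replicate 2 was the lowest of its group and still lay above all 3 sham arrays. The difference was 4.30-fold (log2 difference 2.10, SE 0.59, adjusted p = 0.0275 by limma). Cd24a, a small glycosylated surface protein of progenitor and duct cells, read 8.52, 7.75 and 8.46 in ligated livers and 5.97, 5.89 and 5.84 on the sham arrays. These groups were far apart relative to their spread, and Cd24a rose 5.08-fold (log2 difference 2.34, SE 0.61, adjusted p = 0.0179 by limma).

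Krt7, the other duct keratin, had 6.51, 5.60 and 6.73 in ligated livers and 5.23, 4.79 and 5.16 on the sham arrays. The groups did not overlap, but the log2 difference of 1.22 (SE 0.53) did not pass, at an adjusted p of 0.165 by limma. Epcam, the epithelial adhesion molecule, behaved alike, with 6.45, 5.29 and 6.27 after ligation and 4.89, 4.57 and 4.52 after sham surgery (log2 difference 1.35, SE 0.63, adjusted p = 0.20 by limma). In Krt7, Krt19, Epcam and Cd24a the same ligated liver, replicate 2, was the lowest of the 3.

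The regulators of duct cell fate also rose. Sox9, the transcription factor of duct progenitors, read 8.49, 9.59 and 9.62 after ligation and 8.28, 8.00 and 7.74 on the sham arrays, with ligated replicate 1 just above the highest sham value. It rose 2.34-fold (log2 difference 1.23, SE 0.36, adjusted p = 0.0357 by limma). Bicc1, an RNA-binding protein whose loss in mice causes cysts of kidney and bile ducts, read 6.83, 6.92 and 7.12 against 5.99, 6.02 and 5.85, with a narrow spread in both groups. It rose 2.0-fold (log2 difference 1.0, SE 0.30, adjusted p = 0.0378 by limma).

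The keratins that hepatocytes share with duct cells had the tightest ligated groups. Krt8 read 12.71, 12.75 and 12.68 in ligated livers against 11.29, 11.41 and 11.77 on the sham arrays, a 2.34-fold rise (log2 difference 1.23, SE 0.34, adjusted p = 0.0273 by limma). Krt18, its filament partner, read 12.32, 12.36 and 12.23 against 10.54, 10.65 and 11.20 and rose 2.84-fold (log2 difference 1.5, SE 0.30, adjusted p = 0.0032). In both keratins sham replicate 3 was the highest of its group and lay well below every ligated array.

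Elf3, an ETS-family transcription factor of simple epithelia, changed most. It read 7.25, 7.62 and 8.07 in ligated livers and 4.23, 4.13 and 4.75 on the sham arrays, and the nearest arrays of the 2 groups were more than 2 log2 units apart. The rise was 9.67-fold (log2 difference 3.27, SE 0.50, adjusted p = 0.000417 by limma). In all 9 members every ligated array lay above every sham array, whereas this was so for 16.5% of all genes.

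Leaving out ligated replicate 1, 2 or 3 reduced the count of members called at 48 h to 3, 4 or 2, and leaving out sham replicate 1, 2 or 3 to 2, 2 or 3. Over all genes the share called in either direction fell as well, from 9.43% to 7.68%, 5.87% or 6.3% without a ligated array. It was 5.88%, 6.41% or 6.14% without a sham array. Elf3 and Krt18 were called under each of the 16 alternatives tried. With the sham arrays of 28 d in place of those labelled control sham 48 h, 5 of 9 were called, beside 11.9% of all genes. Krt19 (log2 difference 1.0, adjusted p = 0.323 by limma) and Cd24a (1.22, adjusted p = 0.229) were then not called.

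After 28 d of ligation the means of all 9 members were again higher than after sham surgery, and 4 of 9 were called by limma (Bicc1, Krt18, Krt7 and Elf3), beside 11.7% of all genes called higher. The spread within the ligated group was wide, and much of it came from replicate 3. In 4 of 9 members (Krt7, Krt8, Krt18 and Bicc1) the groups did not overlap, against 15.1% of all genes. The median of the members was 1.42, against -0.03 for all genes.

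Bicc1 had the clearest change. It read 7.42, 7.45 and 9.18 in control livers ligated for 28 d and 6.02, 5.92 and 6.02 after sham surgery. Every ligated array lay more than 1 log2 unit above every sham array, and the rise was 4.09-fold (log2 difference 2.03, SE 0.30, adjusted p = 6.29e-05 by limma). Without ligated replicate 3 the log2 difference of Bicc1 was 1.45 and remained called. Sox9 read 7.38, 8.45 and 8.31 against 6.86, 7.25 and 7.53, with ligated replicate 1 inside the sham range, and did not pass (log2 difference 0.84, SE 0.36, adjusted p = 0.103).

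Krt18 read 11.58, 12.35 and 12.39 after ligation and 10.82, 10.93 and 10.82 after sham surgery, a 2.38-fold rise (log2 difference 1.25, SE 0.30, adjusted p = 0.00487 by limma). Krt8 showed the same order of ligated arrays, with 11.77, 12.73 and 12.76 against 11.43, 11.48 and 11.73, but its log2 difference of 0.88 (SE 0.34) had an adjusted p of 0.0717 by limma. Ligated replicate 1 was the lowest of its group in both, and in Krt8 it lay just above the highest sham array. Elf3 followed this pattern as well, with 5.09, 6.93 and 7.08 in ligated livers and 4.20, 4.81 and 5.57 in sham livers, so that ligated replicate 1 fell inside the sham range. Its rise of 2.84-fold passed (log2 difference 1.51, SE 0.50, adjusted p = 0.0353 by limma) and was called under 9 of 16 alternatives. The call was lost without ligated replicate 2 (adjusted p = 0.125) or 3 (0.149) and without sham replicate 1 (0.158) or 2 (0.0826).

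The results for Krt7, Krt19, Cd24a and Epcam depended on single arrays. Krt7 read 6.20, 6.14 and 9.01 after ligation against 5.0, 5.31 and 5.48 and rose 3.61-fold (log2 difference 1.85, SE 0.53, adjusted p = 0.0153 by limma). Without ligated replicate 3 its log2 difference was 0.91, with an adjusted p of 0.0784. Krt19 read 5.96, 6.14 and 8.95 against 5.16, 5.0 and 6.64, Cd24a 7.54, 7.74 and 10.62 against 6.56, 6.10 and 8.40, and Epcam 5.24, 5.34 and 8.73 against 5.0, 4.93 and 5.78.

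In Krt19, Cd24a and Epcam the groups overlapped, because sham replicate 3 exceeded ligated replicates 1 and 2. None of these 3 passed, with log2 differences of 1.42 (SE 0.59, adjusted p = 0.0899), 1.61 (SE 0.61, adjusted p = 0.0626) and 1.20 (SE 0.63, adjusted p = 0.185) by limma. Without ligated replicate 3 the differences were 0.45 for Krt19, 0.62 for Cd24a and 0.05 for Epcam. Without sham replicate 3, Krt19 (1.94, adjusted p = 0.0367 by limma) and Cd24a (2.30, adjusted p = 0.012) were called. Replicate 3 was also left out of both groups, a choice made after the levels were seen. Cd24a was then called (1.31, adjusted p = 0.0126), and Krt19 and Epcam were not. Ligated replicate 3 exceeded the mean of replicates 1 and 2 by 10.8-fold in Epcam, 7.89-fold in Cd24a, 7.46-fold in Krt19 and 7.16-fold in Krt7, but by 1.43-fold in Krt8 and 1.35-fold in Krt18. The part of the stellate cell and mesothelial markers, which were also high on that array, was not tested.

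Over all members, the count called at 28 d was 2 of 9 without ligated replicate 3, 8 of 9 without ligated replicate 1 and 2 of 9 without sham replicate 1. In these fits 21.7%, 21.3% and 17.9% of all genes were called in either direction. Bicc1 was called under all 16 alternatives and Krt18 under 15. With both sham groups together as the reference, a choice made after the levels were seen, 8 of 9 were called, beside 29.5% of all genes.

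**Figure D2:**
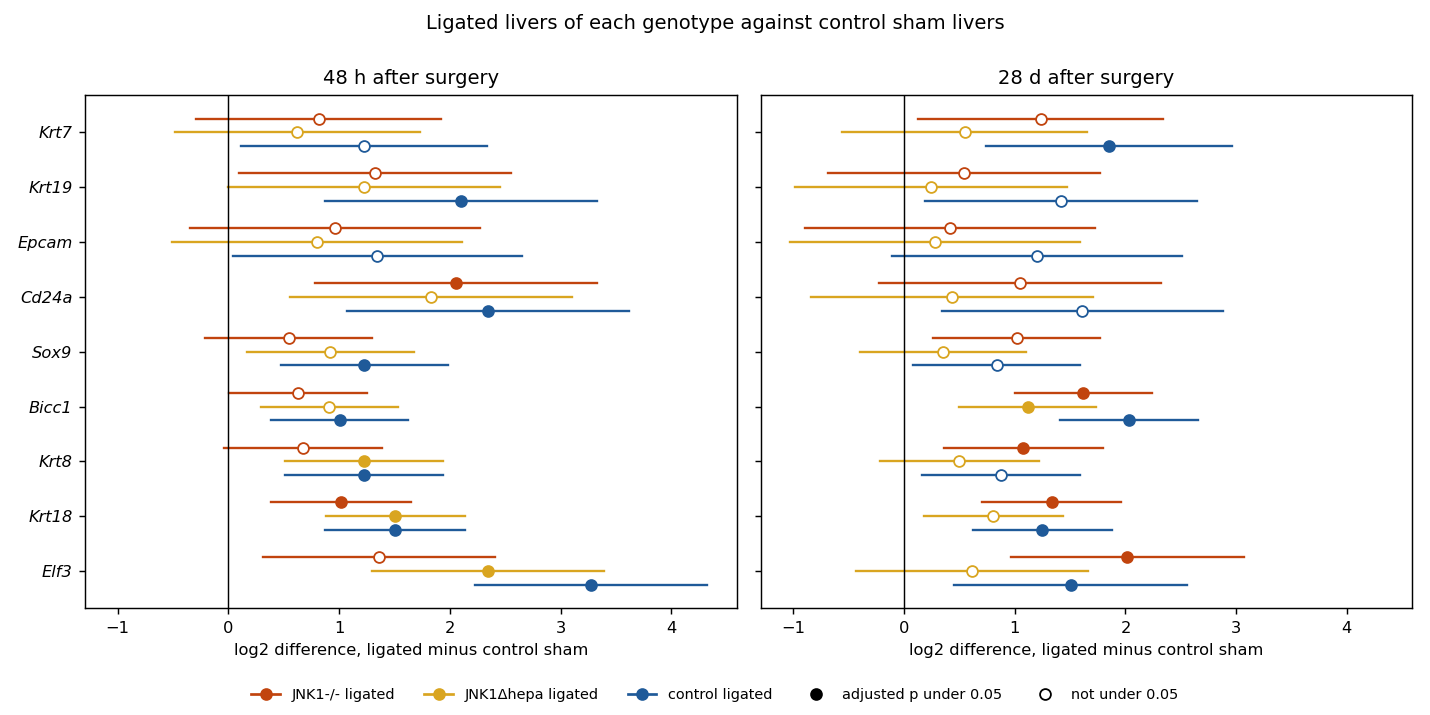
Log2 difference (horizontal axis) of JNK1-/-, JNK1Δhepa and control ligated livers from control sham livers of the same time, for each member, with 95% confidence intervals from limma (n = 3 per group). Filled points have an adjusted p under 0.05. All estimates lie above 0, and in control livers the interval of each member excludes 0 at both times except that of Epcam at 28 d (-0.11 to 2.51).

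Whether the effect of ligation differed between 28 d and 48 h in control liver was tested as an interaction. None of the 9 members passed (lowest adjusted p = 0.247 by limma, beside 1.3% of all genes called), and 2 had an unadjusted p under 0.05. These were Elf3, whose effect was smaller at 28 d by a log2 difference of -1.77 (95% interval -3.25 to -0.28), and Bicc1, whose effect was larger by 1.03 (95% interval 0.15 to 1.91).

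Between the sham groups themselves no member passed (0 of 9 called by limma, 1 at an unadjusted p under 0.05, 0.133% of all genes called). Their estimates were nevertheless as large as 1.12 for Cd24a and 1.10 for Krt19, higher at 28 d in all 3 arrays, and -0.79 for Sox9, lower in all 3. Such separation was seen for 8.92% of all genes upwards and 9.04% downwards. Sham 28 d replicate 3 weighed on the first 2 estimates. It read 8.40 in Cd24a (6.56 and 6.10 on replicates 1 and 2) and 6.64 in Krt19 (5.16 and 5.0).

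Ligated livers of the same genotype were also compared between the times. In control livers Sox9 was 2.27-fold lower at 28 d than at 48 h (log2 difference -1.18, SE 0.36, adjusted p = 0.0405 by limma) and Bicc1 2.09-fold higher (1.06, SE 0.30, adjusted p = 0.028), 2 of 9 members called beside 10.4% of all genes. Without ligation Sox9 was also lower at the later time, with sham means of 7.21 at 28 d and 8.01 at 48 h, a difference not called. In JNK1Δhepa livers Sox9 was 2.57-fold lower (-1.36, SE 0.36, adjusted p = 0.0123), the 1 member called beside 18% of all genes. Its arrays read 7.03, 7.69 and 7.97 at 28 d and 9.24, 9.06 and 8.49 at 48 h, and such a separation downwards was seen for 4 of 9 members (Krt8, Krt18, Sox9 and Elf3) and 19.3% of all genes. Without the array labelled JNK1Δhepa 28 d replicate 1 this call was lost, at a log2 difference of -1.10 and an adjusted p of 0.0805, and likewise without JNK1Δhepa BDL 48 h replicate 1 (-1.21, adjusted p = 0.0602). Without control BDL 28 d replicate 1 the Sox9 difference in control liver was -0.85, with an adjusted p of 0.197, and it was also lost without control BDL 48 h replicate 2 (adjusted p = 0.148) or 3 (0.142). The Bicc1 difference was lost without control BDL 48 h replicate 1 (adjusted p = 0.0943) or 2 (0.0762), and was 0.48 without control BDL 28 d replicate 3. In JNK1-/- livers no member was called (2 of 9 at an unadjusted p under 0.05, beside 2.84% of all genes called), although all 3 Bicc1 arrays of 28 d lay above those of 48 h (log2 difference 1.02, adjusted p = 0.0701).

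The order of the group means followed these differences. Bicc1 was highest in the ligated groups of 28 d, at 7.61 ± 0.37 in JNK1-/-, 7.10 ± 0.12 in JNK1Δhepa and 8.02 ± 1.01 in control livers (SD, n = 3 each). The ligated groups of 48 h followed, at 6.59 ± 0.21, 6.87 ± 0.12 and 6.96 ± 0.15 in the same genotypes, and the sham groups of 28 d (5.99 ± 0.06) and 48 h (5.96 ± 0.09) came last and differed by less than their spread. The highest means of Sox9 were those of control (9.23 ± 0.64), JNK1Δhepa (8.93 ± 0.39) and JNK1-/- livers (8.55 ± 0.37) ligated for 48 h. These neighbours also lay within their spread of each other.

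The role of JNK1 was addressed by comparing ligated livers of each mutant with ligated control livers. At 48 h all 9 members had a lower mean in JNK1-/- livers, by log2 differences of -1.91 to -0.29, and 1 of 9 was called, Elf3, beside 1.11% of all genes called lower. Elf3 read 4.54, 6.15 and 6.50 in JNK1-/- livers and 7.25, 7.62 and 8.07 in control livers, so that every JNK1-/- array lay below every control array, as in 10.6% of all genes. The difference was 3.77-fold (log2 difference -1.91, SE 0.50, adjusted p = 0.0499 by limma), at the edge of the threshold. It was called under 5 of 14 alternatives, with estimates of -2.30 to -1.32 and adjusted p-values of 0.00639 to 0.23, and was lost without JNK1-/- replicate 1 (-1.32, adjusted p = 0.23), JNK1-/- replicate 2 or any of the 3 control arrays.

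JNK1-/- replicate 1 stood apart in the keratin pair as well. Krt8 read 10.88, 12.77 and 12.82 in JNK1-/- livers against 12.71, 12.75 and 12.68 in control livers, and Krt18 read 10.75, 12.22 and 12.48 against 12.32, 12.36 and 12.23. On replicate 1 both keratins lay within or below the sham range, whereas replicates 2 and 3 lay at the control level. Neither difference passed (log2 differences -0.56 and -0.49, adjusted p = 0.485 and 0.488 by limma). On the same array Krt19 (6.15) and Cd24a (8.22) were not low. Bicc1 read 6.35, 6.74 and 6.67 against 6.83, 6.92 and 7.12, again without overlap, and did not pass (-0.37, SE 0.30, adjusted p = 0.624). Without JNK1-/- replicate 1 the differences of Krt8 (0.084) and Krt18 (0.046) turned positive.

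At 28 d no member was called between JNK1-/- and control livers, with 0 of 9 at an unadjusted p under 0.05, beside 0.627% of all genes called in either direction. Estimates ran from -0.88 for Krt19 (95% interval -2.10 to 0.35) to 0.51 for Elf3 (95% interval -0.54 to 1.56). None of these directions was stable to leaving out an array. Without control BDL 28 d replicate 3 the difference was 0.09 for Krt19, 0.33 for Krt7, 0.36 for Epcam, 0.43 for Cd24a and 0.17 for Bicc1, so that the sign turned in all 5. Leaving out control BDL 28 d replicate 1 turned it in Krt8 (-0.12), Krt18 (-0.18), Sox9 (-0.15) and Elf3 (-0.13). The Elf3 values were 6.42, 6.47 and 7.74 in JNK1-/- livers and 5.09, 6.93 and 7.08 in control livers, which overlapped. The change of the Elf3 difference between the times was 2.42 on the log2 scale (SE 0.71) and was not called (adjusted p = 0.108 by limma, with 0 of 9 members and 0.744% of all genes called). It passed without control BDL 28 d replicate 3 (2.78, adjusted p = 0.0445).

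JNK1Δhepa livers ligated for 48 h were set against control livers next, and no member passed (estimates from -0.93 to 0.00, none at an unadjusted p under 0.05). No gene of the 18820 was called in this comparison (0%), and 607 had an unadjusted p under 0.05. Krt8 read 12.80, 12.78 and 12.57 in JNK1Δhepa livers against 12.71, 12.75 and 12.68 in control livers, a difference of 0.00 with a 95% interval of -0.71 to 0.71. Elf3 read 6.83, 6.78 and 6.53 against 7.25, 7.62 and 8.07, lower without overlap as in 6.09% of all genes, and did not pass (-0.93, 95% interval -1.98 to 0.12, adjusted p = 1 by limma). The array JNK1Δhepa BDL 48 h replicate 3 carried pancreas genes, with a mean of 6.32 over 8 exocrine pancreas markers against 4.21 and 4.30 on replicates 1 and 2, and Ctrb1, a digestive protease precursor, at 8.03. Ctrb1 also read 7.05 on control sham 28 d replicate 3, against 4.22 and 4.32 on sham replicates 1 and 2, while the mean of the list was 4.69 there, against 4.29 and 4.35. Pancreatic ducts express several of the genes described here. On JNK1Δhepa BDL 48 h replicate 3 the members were lowest of their group in 6 of 9 and highest in 1 of 9. Without this array the count of members called was also 0, beside 1 gene of 18820. So few calls cannot show an effect of the array on the members, and the part of pancreas tissue was not tested.

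At 28 d all 9 members had a lower mean in JNK1Δhepa than in control livers, by -1.30 to -0.37, and none was called. When control BDL 28 d replicate 3 was left out, Epcam was higher in JNK1Δhepa livers (log2 difference 0.23) and the differences of Krt7 (-0.36), Krt19 (-0.21) and Cd24a (-0.18) were smaller. Across all genes 0.228% were called in either direction, or 0.0584% with the replicate number as a block. Krt7 read 6.25, 5.96 and 5.24 in JNK1Δhepa livers against 6.20, 6.14 and 9.01 in control livers (log2 difference -1.30, SE 0.53, adjusted p = 0.255 by limma). Bicc1 read 7.20, 7.14 and 6.97 against 7.42, 7.45 and 9.18, lower without overlap as in 6.14% of all genes (-0.92, SE 0.30, adjusted p = 0.162), and its difference was -0.34 without control replicate 3. Both had an unadjusted p under 0.05.

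The keratin pair was narrowly spread in JNK1Δhepa livers at 28 d. Krt8 read 12.07, 12.05 and 12.01 there, against 11.77, 12.73 and 12.76 in ligated control livers, and Krt18 read 11.65, 11.65 and 11.69 against 11.58, 12.35 and 12.39. In both keratins the JNK1Δhepa arrays lay above control replicate 1 and below replicates 2 and 3. Without control BDL 28 d replicate 1, 3 of 9 members were called lower in JNK1Δhepa livers (Krt7, Elf3 and Bicc1). In that fit 10.5% of all genes were called in either direction. Without the array labelled JNK1Δhepa 28 d replicate 1 no member was called. The change of the JNK1Δhepa difference between the times was called by limma for 0 of 9 members (0 at an unadjusted p under 0.05) and for 0% of all genes.

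**Figure D3:**
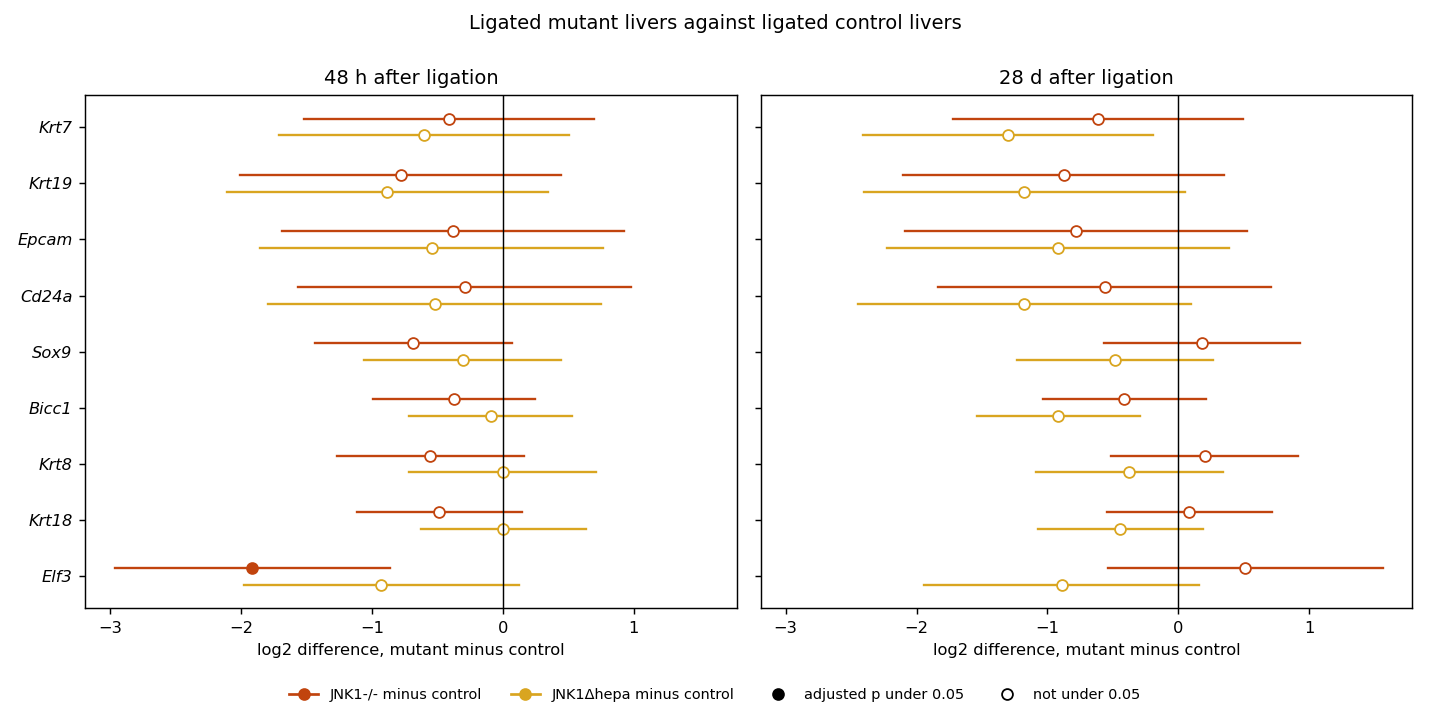
Log2 difference (horizontal axis) of JNK1-/- and JNK1Δhepa from control livers, all ligated, for each member at 48 h and 28 d, with 95% confidence intervals from limma (n = 3 per group). Elf3 in JNK1-/- livers at 48 h is the filled point, with an adjusted p under 0.05, and at 28 d all JNK1Δhepa estimates lie below 0.

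The mutants were also set against each other. At 48 h no member passed between JNK1-/- and JNK1Δhepa livers (0 of 9 called, none at an unadjusted p under 0.05, beside 2.44% of all genes called), with estimates of -0.98 for Elf3 to 0.23 for Cd24a. Over 14 alternatives the Elf3 estimate ran from -1.37 to -0.39. At 28 d the means of all 9 were higher in JNK1-/- livers and none was called, beside 0.962% of all genes. Epcam turned lower without JNK1-/- replicate 3 (-0.12) or JNK1Δhepa replicate 3 (-0.03). The groups did not overlap in 4 of 9 (Krt8, Krt18, Elf3 and Bicc1), against 13.2% of all genes. Elf3 had the largest of these differences, at 6.42, 6.47 and 7.74 in JNK1-/- livers and 5.34, 5.50 and 5.59 in JNK1Δhepa livers (log2 difference 1.40, 95% interval 0.35 to 2.45, adjusted p = 0.16 by limma).

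Sham livers of the mutants were not studied, so ligated mutant livers could be set only against control sham livers, with genotype and surgery changed together. These 4 comparisons were added after the data were seen, and those of 1 time share their sham arrays. At 48 h 2 of 9 members were called higher in JNK1-/- livers (Krt18 and Cd24a, beside 6.22% of all genes), and 3 of 9 in JNK1Δhepa livers (Krt8, Krt18 and Elf3, beside 4.36%). All 9 members of JNK1Δhepa livers lay above the range of the arrays labelled control sham 48 h, against 15.9% of all genes. With both sham groups as the reference the counts were 2 and 5. For ligation in control liver at 48 h that reference raised the share of all genes called from 9.43% to 14.6%. The shares for the mutants with that reference or with arrays left out are not given here. No member was called in JNK1-/- livers without JNK1-/- replicate 2 or 3 or without sham replicate 1 or 2, and 1 was without sham replicate 3. Without JNK1-/- replicate 1, Krt8 (log2 difference 1.31, adjusted p = 0.000362 by limma), Elf3 (1.95, adjusted p = 0.0121) and Krt18 were called. Cd24a was then not called (adjusted p = 0.0818).

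At 28 d 4 of 9 were called higher in JNK1-/- livers (Krt8, Krt18, Elf3 and Bicc1, beside 7.19% of all genes) and 1 of 9, Bicc1, in JNK1Δhepa livers (beside 11.1%). Bicc1 was 3.07-fold higher in JNK1-/- (log2 difference 1.62, SE 0.30, adjusted p = 0.000938) and 2.17-fold higher in JNK1Δhepa livers (1.12, SE 0.30, adjusted p = 0.0104 by limma). Leaving out 1 array at a time gave a count of 2 to 3 in JNK1-/- livers, and it was 2 without JNK1-/- replicate 3 or sham replicate 1. There Krt18 and Bicc1 were called under all 16 alternatives, Elf3 under 14 and Krt8 under 7. Krt8 was lost without JNK1-/- replicate 1, 2 or 3 (adjusted p = 0.0768, 0.0925 and 0.121 by limma). Krt19 did not pass in these comparisons, with 6.23, 5.57 and 6.63 in JNK1-/- and 6.03, 5.88 and 5.61 in JNK1Δhepa livers, all within the sham range of 5.0 to 6.64 set by sham replicate 3.

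The members fell into more than 1 pattern over the arrays. Of all genes, the 5 whose log2 intensity correlated most with Krt19 over the 24 arrays were Cd24a (Pearson r 0.941, Spearman rho 0.913), Mboat1, a membrane acyltransferase, Tspan8, a tetraspanin of epithelia, Epcam and Cldn7, a claudin of tight junctions, with r from 0.890 to 0.904 for the last 4. Without control BDL 28 d replicate 3 and control sham 48 h replicate 3, the arrays farthest from the median of Krt19, r was 0.888 for Cd24a and 0.763 to 0.814 for the others. Krt8 was closest to Krt18 (r 0.967, rho 0.945), then to Mtmr11, Lmna, which encodes the nuclear lamins A and C, Mybl1 and the desmosomal plakin Ppl, with r from 0.923 to 0.938. Elf3 was closest to D17H6S56E-5 (r 0.911) and Krt8 (0.909), followed by Sprr1a, Ptpn23 and Mtmr11 (0.902 to 0.905). These arrays share their groups, so the coefficients describe common patterns over ligation and time.

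**Figure D4:**
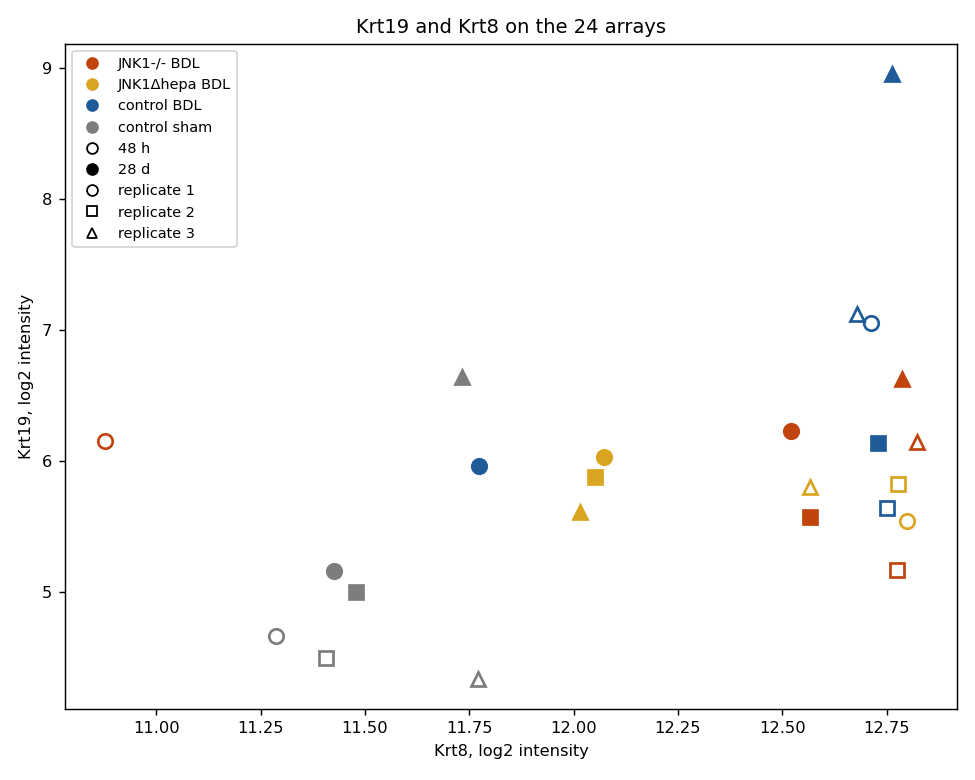
Log2 intensity of Krt19 (vertical axis) against Krt8 (horizontal axis) on the 24 arrays. Colour gives genotype and surgery, open symbols are 48 h, filled symbols 28 d, and shapes are replicate numbers. The highest Krt19 reading, 8.95 on control BDL 28 d replicate 3, stands at a Krt8 level of 12.76, within the ligated range that reaches 12.82, and JNK1-/- BDL 48 h replicate 1 has the lowest Krt8 (10.88) with a Krt19 of 6.15.

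Other genes of ducts and epithelial junctions were counted in lists, beside 5.61% of all genes called higher and 3.83% called lower in control liver at 48 h and 11.7% and 11.5% at 28 d. Of 25 measured other bile duct markers, 3 rose and none fell in control liver at 48 h of ligation (median log2 difference 0.58, against -0.03 for all genes), and 6 rose and none fell at 28 d (median 0.64). At 48 h these included Krt23, a keratin of stressed liver (1.77, SE 0.35, adjusted p = 0.00286 by limma), the integrin chain Itga6 (1.28) and the claudin Cldn3 (0.79). At 28 d Prom1, a stem cell membrane protein (1.89), and Cldn4 (1.58) rose most among those named, with Cldn6 (0.85) and the integrin chain Itgb4 (0.83). Without control BDL 28 d replicate 3 the count was 3 and the median 0.14, without ligated replicate 1 or 2 the count was 12 or 11, and without sham replicate 2 it was 3. Of all 18820 genes, 2113 were called higher without ligated replicate 3, 2201 or 2184 without ligated replicate 1 or 2, and 1754 without sham replicate 2. No member of this list was called between either mutant and control at either time, with medians of -0.55 to -0.19.

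Among 21 other keratins and desmosome genes, 9 rose and none fell at 48 h (median 0.32), and 8 rose and 1 fell at 28 d (median 0.25). Ppl, a plakin that ties keratin filaments to desmosomes, rose 7.59-fold at 48 h (log2 difference 2.92, SE 0.45, adjusted p = 0.000427 by limma) and 4.82-fold at 28 d (2.27, SE 0.45, adjusted p = 0.00105). Dsp, the desmosomal linker desmoplakin, rose by 1.04 at 48 h, and Dsc2, a desmosomal cadherin, by 0.83 at 48 h and 0.79 at 28 d. Vim, the intermediate filament protein of mesenchymal cells, rose by 1.36 at 28 d and Jup, plakoglobin, by 0.67. Without ligated replicate 2 at 48 h 5 of the 21 were called, beside 5.87% of all genes in either direction.

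Of 20 tight junction and polarity genes 6 rose at 48 h and none fell (median 0.46), and 5 rose and 3 fell at 28 d (median 0.04). F11r, a junctional adhesion molecule, rose by 1.20 (SE 0.16) at 48 h and 0.95 (SE 0.16) at 28 d, and Tjp1, the scaffold ZO-1, by 0.61 and 0.50. Of 19 Notch pathway and biliary transcription factor genes, 1 rose at 48 h, the receptor Notch2 (0.61, adjusted p = 0.00423 by limma), with a median of 0.08. At 28 d 3 rose and 2 fell (median 0.15), or 1 and 3 without ligated replicate 3. Notch2 (0.52) and the Notch target Hes1 (1.08) rose, while Onecut1, a factor of hepatocyte and duct development, fell by 1.65 (SE 0.37, adjusted p = 0.00301) and the hepatoblast factor Tbx3 fell by 1.49 (SE 0.22, adjusted p = 6.31e-05).

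**Figure D5:**
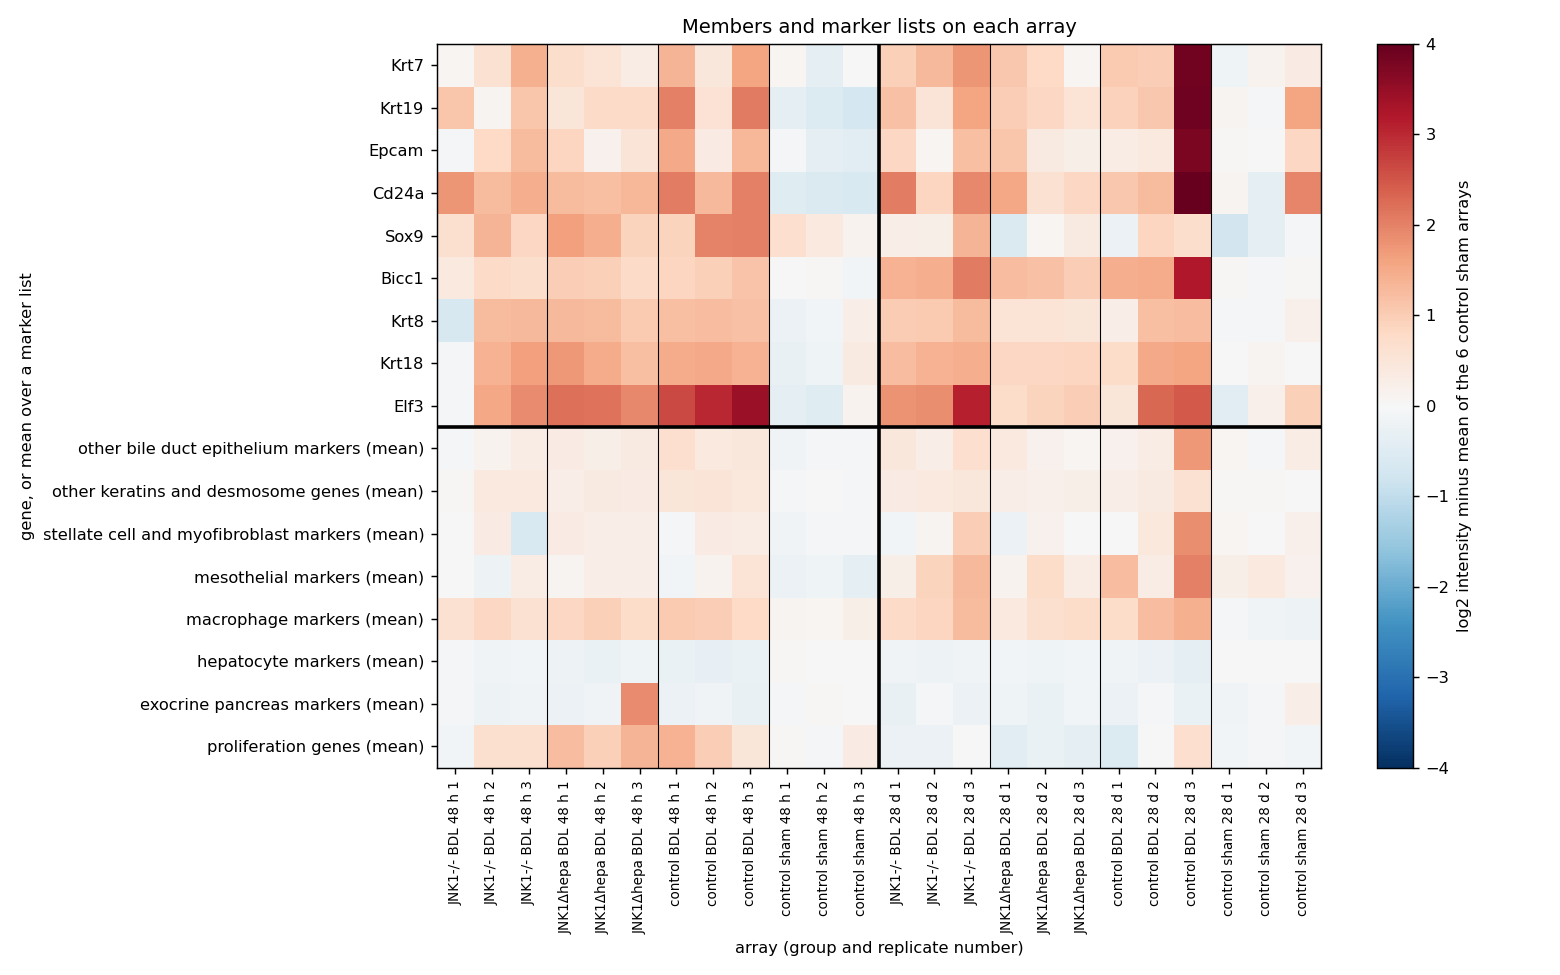
Log2 intensity of the 9 members (upper rows) and mean log2 intensity of marker lists (lower rows) on each of the 24 arrays (columns, by group and replicate), as the difference from the mean of the 6 control sham arrays (colour scale). Control BDL 28 d replicate 3 is dark in Krt7, Krt19, Epcam and Cd24a and in the lists of other duct, stellate cell and mesothelial markers, and JNK1Δhepa BDL 48 h replicate 3 in the pancreas list.

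Markers of other cell types moved over the same samples. Of all genes 5.61% were called higher at 48 h and 11.7% at 28 d. Stellate cell and myofibroblast markers had 0 of 18 called at 48 h and 5 that rose at 28 d, with the means of the list from 6.53 to 8.40 on ligated control arrays of 28 d and 6.54 to 6.76 on sham arrays. Mesothelial markers had 0 of 10 called at 48 h and 4 that rose at 28 d, with means of 5.33 to 7.05 on ligated and 5.20 to 5.43 on sham arrays of 28 d. Without ligated replicate 3, 3 of the 18 stellate cell markers rose and 1 fell (median 0.12, against 0.84 with it), and 3 of the 10 mesothelial markers rose and 1 fell (0.35, against 0.79). In that fit 2113 of 18820 genes were called higher and 1966 lower. The remaining counts are from the fit to all arrays. Hepatocyte markers fell in 4 of 17 cases at 48 h and 7 at 28 d, with medians of -0.20 and -0.17, beside 3.83% and 11.5% of all genes called lower. Of 8 exocrine pancreas markers 1, Cela1, fell at each time and none rose. The part of these cell types in the changes of the duct genes was not tested.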

How the data were processed

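Whole-liver RNA (100 ng per sample, per the labels) was measured on 24 arrays in 8 groups of 3. The deposited file gives a log2 intensity for each probe set, computed by the authors with RMA, per the submitters' processing notes. Neither the settings of RMA nor a genome build is named in the sources used here, and the file holds no detection calls.

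Of 35556 probe sets, 21218 carried 1 symbol, 1881 several and 12457 none in the platform annotation, and the brightest with 1 symbol stood for each of 18820 symbols. A single limma model (version 3.58.1, R 4.3.3) held a mean per group, on 24 arrays with 16 residual and 3.55 prior degrees of freedom, and plots were drawn with matplotlib 3.10.9 (Python 3.11.15). Genes were called at a Benjamini-Hochberg adjusted p under 0.05, taken over all symbols within a comparison. There were 15 comparisons, and 4 added later. The median SE of a difference was 0.129. The number of arrays limits the precision. No 2 arrays were identical (highest correlation 0.9932). Variances were pooled over groups, although control BDL 28 d was more variable (median SD 0.187, against 0.115 to 0.139 elsewhere).

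The members and the 13 lists of other genes were chosen with earlier results of these data known. All members were named, with up to 4 genes of smallest p per list and the 5 genes most correlated with Krt19, Krt8 and Elf3 (planned also for Spp1). The test was checked on simulated data. Deviations of arrays with the same replicate number correlated above 0.1 for all 3 pairs in JNK1Δhepa against control at 28 d only (0.501, 0.244 and 0.161), from the data and not from the labels. Alternatives covered the normalization, dim probe sets, several probe sets per symbol, the variance model, array weights, the replicate block, the arrays fitted and each array left out. Promoter sequences are from RefSeq on GRCm38.p6.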

Additional observations from a re-analysis of the deposited data

How the results depend on the processing

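Counts below are members called of 9 by limma. Most comparisons kept theirs within 1.5 times under quantile normalization, median centring, the filter on dim probe sets and the intensity trend, and the cause of each change was not tested. With the replicate block the count was 7 for ligation in control liver at 28 d (4 without it), 2 for 28 d against 48 h in JNK1Δhepa, 2 for JNK1Δhepa ligated against control sham at 28 d, and 1 (Elf3) for the change of the JNK1-/- difference. The block changed no other member count by over 1.5 times. With only the groups compared in the fit, which leaves fewer arrays, it was 2 for ligation at 28 d, 0 for JNK1-/- against control at 48 h, 0 for 28 d against 48 h in control and 4 in JNK1Δhepa, and 9 at 48 h and 3 at 28 d for JNK1Δhepa ligated against control sham. With array weights it was 3 for JNK1Δhepa against control at 28 d, 1 for JNK1-/- against JNK1Δhepa at 28 d, 1 and 4 for 28 d against 48 h in JNK1-/- and JNK1Δhepa, 6 for both mutants against control sham at 48 h, and 2 for JNK1Δhepa at 28 d. JNK1-/- against control at 48 h gave 0 under quantile normalization, the mean of all probe sets, and the trend with a robust prior. The mean of all probe sets gave 1 for 28 d against 48 h in control and 0 for JNK1Δhepa against control sham at 28 d, where leaving out dim probe sets gave 2. Both sham groups as the reference gave 8 for ligation at 28 d, and 5 at 48 h and 2 at 28 d for JNK1Δhepa. Without replicate 3 of both control groups of 28 d it was 2 for ligation, 1 for the change of the JNK1-/- difference and 2 for JNK1Δhepa against sham. Shares of all genes called moved as well. For ligation at 28 d the share was 23.2% as first fitted, 23.7% with the block and 9.38% with only the groups compared. It was 29.5% with both sham groups and 17.4% without replicate 3 of both control groups. For JNK1Δhepa against control at 28 d it rose from 0.228% to 12.5% with array weights. For JNK1-/- against control at 48 h it fell from 2.3% to 0.643% with only the groups compared.

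Leaving out 1 array at a time gave 2 to 4 members for ligation at 48 h, 2 to 8 at 28 d, 0 to 1 for JNK1-/- against control at 48 h, 0 to 3 for JNK1Δhepa against control at 28 d, 0 to 1 for the change of the JNK1-/- difference, and 0 to 3 in control and 0 to 1 in JNK1Δhepa for 28 d against 48 h. Against control sham it gave 0 to 3 and 2 to 3 for JNK1-/- at 48 h and 28 d, and 2 to 3 and 1 to 1 for JNK1Δhepa. The other comparisons stayed at 0 (0 to 0).

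Of 112 gene differences 23 changed sign under some alternative, none of them called as first fitted. With 1 array left out, JNK1-/- against control at 28 d ranged from -1.11 to 0.33 in Krt7, -1.40 to 0.090 in Krt19, -0.12 to 0.37 in Krt8, -0.18 to 0.23 in Krt18, -1.38 to 0.36 in Epcam, -0.18 to 0.38 in Sox9, -1.11 to 0.43 in Cd24a, -0.13 to 0.87 in Elf3 and -0.71 to 0.17 in Bicc1. At 48 h it ranged from -0.89 to 0.084 in Krt8 and -0.82 to 0.046 in Krt18. Array weights turned it at 28 d in Krt7 (0.034), Krt8 (-0.078), Krt18 (-0.13), Sox9 (-0.30) and Elf3 (-0.13). JNK1Δhepa against control ranged from -1.52 to 0.23 in Epcam at 28 d, and at 48 h from -0.042 to 0.074 in Krt8 (-0.015 after centring) and -0.12 to 0.14 in Krt18 (-0.0021 after quantile normalization, -0.011 after centring). Without replicate 3 of both control groups the differences at 28 d were those without control BDL replicate 3. JNK1-/- against JNK1Δhepa at 48 h ranged from -0.16 to 0.50 in Krt7, -0.064 to 0.43 in Krt19 (-0.28 with weights), -0.89 to 0.084 in Krt8, -0.82 to 0.042 in Krt18 and -0.14 to 0.53 in Epcam, and at 28 d from -0.12 to 0.45 in Epcam. JNK1Δhepa against control sham at 28 d ranged from -0.059 to 0.76 in Krt19 and -0.029 to 1.12 in Cd24a, and was -0.045 in Sox9 with both sham groups.

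Over all genes, ligation at 48 h gave 1775 calls, 3522 with array weights, 2741 with both sham groups and as few as 1104 without control BDL replicate 2, and ligation at 28 d gave 4360 calls, or 1765 with only the groups compared. JNK1-/- against control gave 433 at 48 h (1891 with weights, 121 with only the groups compared, 161 without control BDL replicate 2) and 118 at 28 d (300 with weights, 187 after centring, 1 with only the groups compared, 74 without replicate 3 of both control groups, 413 without control BDL replicate 2). JNK1Δhepa against control gave 0 at 48 h (3 with weights or without control BDL replicate 1) and 43 at 28 d (2357 with weights, 108 after centring, 11 with the block, 3 with only the groups compared, 1985 without control BDL replicate 1, and 0 under quantile normalization, the mean of all probe sets or without control BDL replicate 3). There were 3 arrays a group, with control BDL 28 d the most variable, no sham livers of the mutants and no detection calls. The 95% intervals of Krt7, Krt19, Epcam, Cd24a and Elf3 reached more than 1 log2 unit to either side of a difference.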

Other observations

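Inflammatory and cell cycle lists changed in control liver beside the duct genes. Of 18 macrophage markers 8 rose at 48 h of ligation and 11 at 28 d, and none fell, beside 5.61% and 11.7% of all genes called higher (medians 0.67 and 1.22, against -0.03 for all genes by limma at both times). Lgals3, the lectin galectin-3, rose by 1.49 (SE 0.14) at 48 h and 2.0 (SE 0.14) at 28 d, and Cd9, a tetraspanin, by 1.09 and 1.68. Of 11 neutrophil markers 6 rose at 48 h and 7 at 28 d, among them S100a8, a calcium-binding protein of granulocytes, by 1.71 (SE 0.45) and 2.33 (SE 0.45). Of 15 proliferation genes 9 rose at 48 h (median 0.95), such as Mki67 (1.6, SE 0.44, adjusted p = 0.0246 by limma). At 28 d none rose and 1, Rrm2, a subunit of ribonucleotide reductase, fell by 0.76. Without control BDL 48 h replicate 1, 2 or 3 the count of proliferation genes that rose at 48 h was 0, 2 or 11, and without replicate 3 that of neutrophil markers was 3. Of all 18820 genes, 859, 702 or 763 were called higher without replicate 1, 2 or 3.

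Of 10 B cell markers none was called at 48 h and 4 fell at 28 d (median -0.28), beside 11.5% of all genes called lower, with Ms4a1, which encodes CD20, down by a log2 difference of -0.75 (SE 0.15). Of 8 erythroid markers 1 fell at 28 d, Alas2, the first enzyme of heme synthesis in red cells (log2 difference -2.35, SE 0.30, adjusted p = 1.76e-05 by limma), and none was called at 48 h.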
